A study of Polyandrocarpa zorritensis and Clavelina lepadiformis with 36 samples.

Results

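Contractile and cytoskeletal genes were followed through the asexual life cycles of 2 colonial tunicates, *Polyandrocarpa zorritensis* and *Clavelina lepadiformis*, both of which form dormant bodies that later germinate into new zooids. The members are the ortholog pairs whose UniProt entry name is that of a human myosin, myosin light chain, troponin, tropomyosin, actin, actin-related protein, titin, filamin, calponin, transgelin, cofilin, profilin, tubulin or tubulin polymerization-promoting protein. A script matched these names in the table of pairs, taking the name of the *P. zorritensis* transcript first and that of the *C. lepadiformis* transcript where the first was not a human entry. It found 43 pairs with 40 different names among 4424 pairs, of which 3441 carry a human name. These 3441 human-named pairs serve as the background where a share stands beside a count. No tropomyosin, cofilin or profilin was among the pairs.

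Bulk RNA of 36 samples was sequenced, 18 per species, from whole pieces of tissue without any transgene or drug. Zooids (the feeding adult bodies), stolons (the vessels in tunic that run from their base), pre-buds (named budding nest in *P. zorritensis* and budding chamber in *C. lepadiformis*) and dormant bodies (spherules and winter buds) each had 3 samples per species. Germinating tissue had 6, of which 3 were kept at 18 °C and 3 at 24 °C, for 48 h. Dormant spherules of *P. zorritensis* came from the field and were frozen, whereas its other stages were grown in the laboratory from material that had germinated there, so that dormancy and field collection cannot be told apart in that species. All tissue of *C. lepadiformis* came from a single laboratory colony. Each sample pooled several specimens.

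The deposited values are 1 mean per stage and transcript, as Kallisto's TPM, a read share corrected for transcript length, after a scaling between libraries (scaled TPM). The tables of the 2 species were scaled separately, so that levels are comparable between stages of a species and only their patterns between species. No value per sample was analysed here, so no difference below has an error or a test, and every comparison is a description of stage means. A member is counted as past 2-fold where the higher of the 2 stage means is at least 5 and log2(mean + 1) differs by at least 1. The table of pairs lists only pairs that the study had called as changing with stage in both species, so that shares among the pairs do not stand for the transcriptome as a whole. In bulk tissue, fewer cells of a type and less RNA per cell cannot be told apart. After the scaling, the values of a stage did not add up to the same total. In *P. zorritensis* zooids had the smallest total (687867) and dormant bodies the largest (1570750), and in *C. lepadiformis* these were stolons (741785) and germinating bodies (1274780).

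Striated muscle contracts when myosin heavy chains of the thick filament pull on actin filaments, a step that troponin gates in response to calcium, while titin and myomesin hold the thick filaments in register. In tunicates the muscle bands of the body wall and siphons let a zooid close its openings, and ascidian body-wall muscle carries troponin although it lacks the striped look of vertebrate skeletal muscle. The same protein families work outside muscle, where non-muscle myosins and the Arp2/3 complex move and branch actin at the edges of all kinds of cells, and tubulins build both the common microtubules and the axonemes of cilia.

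By role, the members comprised 2 muscle myosin heavy chains, 4 myosin light chains and their kinases, 5 troponins, 1 actin, 2 titin and myomesin pairs, 5 crosslinkers and muscle-associated actin binders, 8 non-muscle and unconventional myosins, 5 subunits of the Arp2/3 complex, 1 other actin-related protein and 3 tubulin and TPPP pairs. A further 7 pairs were caught by the spelling of their names and belong to other families. In each species 40 of the 43 members reached 5 scaled TPM in some stage. Names are best matches to human proteins, and a number such as that in TNNC1 or MYH6 does not say which muscle of a tunicate uses the gene. No sequence of these transcripts was used here.

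**Figure D1:**
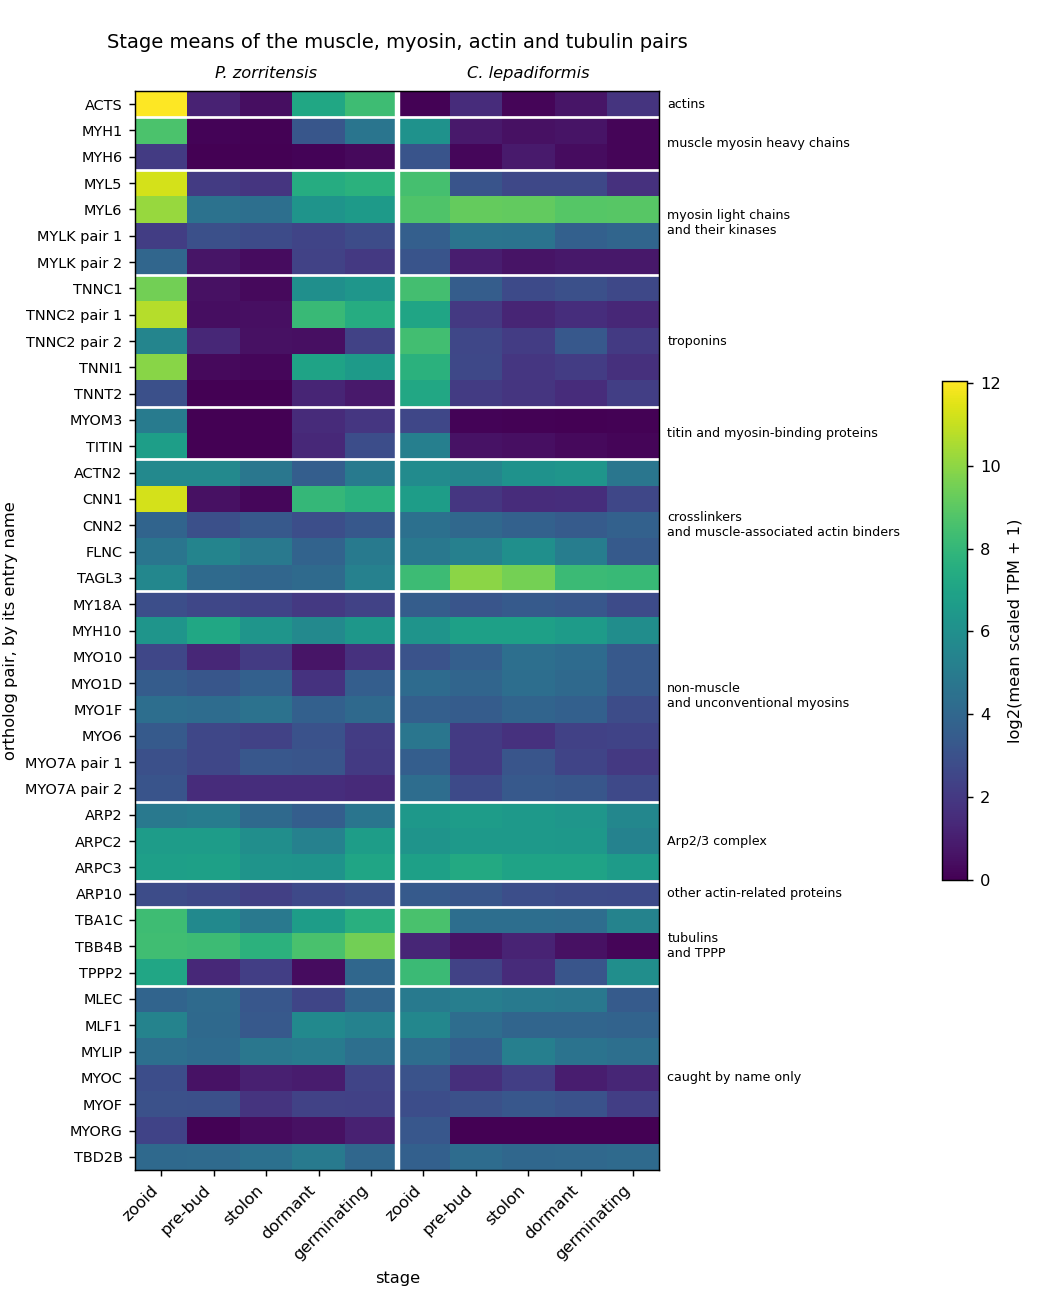
Stage means of the members whose values are reported for both species, as log2(mean scaled TPM + 1), with the 5 stages of *P. zorritensis* on the left and those of *C. lepadiformis* on the right and the pairs grouped by role. ACTS in *P. zorritensis* zooids is the brightest cell at 4224 scaled TPM, and the troponin rows are bright in the zooids of both species and, of the other stages, mostly in dormant and germinating tissue of *P. zorritensis*.

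The genes of the sarcomere marked zooids in both species. In *P. zorritensis* 5 of the 10 pairs were also past 2-fold higher in dormant spherules than in pre-buds and in stolons. In that species dormant tissue was past 2-fold above pre-buds in 4.88% of the human-named pairs and above stolons in 10.7%. Of the 10 pairs named for sarcomere proteins (muscle myosin heavy chains, troponins, titin, myomesin and actin), all 10 were highest in zooids in *P. zorritensis* and 9 in *C. lepadiformis*. Zooids were the highest stage for 35.7% and 45.5% of the human-named pairs. The summed level of the 10 pairs in *P. zorritensis* was 8115 scaled TPM in zooids, 3.9 in pre-buds, 1.7 in stolons, 634.8 in dormant and 704.3 in germinating tissue. In *C. lepadiformis* the sum was 1296 in zooids, 30.2 in pre-buds, 17.5 in stolons, 24.8 in dormant and 18.5 in germinating tissue. These sums hold the paired transcripts only. In *C. lepadiformis* another transcript of the TNNI1 gene alone was at 109 in zooids, 104 in pre-buds, 139 in stolons, 178 in dormant and 233 in germinating tissue. The contrast between the species therefore depends on which transcripts were paired. The dormant mean was above both the pre-bud and the stolon mean, by any margin, in 9 of the 10 pairs in *P. zorritensis* and in 1 of the 10 in *C. lepadiformis*. Among the 9 were MYH6, TNNT2, TITIN and MYOM3, with dormant means under 2. The share of the human-named pairs with such a dormant mean was not counted.

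The actin pair ACTS, named for skeletal muscle alpha-actin, had the highest value of any member. In *P. zorritensis* it was at 4224 scaled TPM in zooids, 1.21 in pre-buds, 0.376 in stolons, 145 in dormant and 319 in germinating tissue. The transcript paired with it in *C. lepadiformis* is named ACTB, for a cytoplasmic actin, and was at 0.043 in zooids, 1.89 in pre-buds, 0.105 in stolons, 0.582 in dormant and 2.49 in germinating tissue. That transcript was lowest in zooids and never reached 5, so the pair does not compare the same kind of actin in the 2 species. The other transcript of the same assembled gene was likewise low, between 0.107 and 5.21 over the stages.

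The heavy chains are the motors of the thick filament. MYH1, named for a fast skeletal heavy chain, was at 397 scaled TPM in *P. zorritensis* zooids, 0.088 in pre-buds, 0.04 in stolons, 8.33 in dormant and 24.3 in germinating tissue. In *C. lepadiformis* MYH1 was at 70.2, 0.796, 0.456, 0.542 and 0.123 in the same order of stages. Both species thus had MYH1 in zooids, and *P. zorritensis* had it at a lower level in dormant and germinating tissue too, while *C. lepadiformis* stayed below 1 there. The second heavy chain, MYH6, named for a cardiac form, was far lower. It was at 3.23 in *P. zorritensis* zooids, was listed at 0 in pre-buds and stolons, and stood at 0.081 in dormant and 0.237 in germinating tissue. In *C. lepadiformis* MYH6 was at 7.77 in zooids and between 0.115 and 0.842 elsewhere.

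Troponin consists of a calcium-binding subunit (C), an inhibitory subunit (I) and a tropomyosin-binding subunit (T), and all of these were among the members. TNNI1 was at 949 scaled TPM in *P. zorritensis* zooids, 0.229 in pre-buds, 0.145 in stolons, 126 in dormant and 92.2 in germinating tissue. Its *C. lepadiformis* partner, named TNNI3, was at 207, 5.06, 2.73, 3.46 and 2.14. The dormant mean was thus 13.3% of the zooid mean in the first species and 1.68% in the second. TNNC1 was at 714, 0.433, 0.229, 63.7 and 80.2 in zooids, pre-buds, stolons, dormant and germinating tissue of *P. zorritensis*. In *C. lepadiformis*, where its partner is named TNNC2, it was at 350, 10.6, 5.54, 6.8 and 5.08. In *P. zorritensis* TNNC1 was somewhat higher in germinating than in dormant tissue and TNNI1 lower.

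The pairs named TNNC2 differed from each other. The first, at 1640 in *P. zorritensis* zooids, was at 0.378 in pre-buds, 0.386 in stolons, 286 in dormant and 174 in germinating tissue. Its dormant mean was the highest of the sarcomere pairs, at 17.5% of the zooid mean. Its partner in *C. lepadiformis*, which matched a protein of another tunicate instead of a human one, was at 135 in zooids and between 1.34 and 3.03 elsewhere. The second TNNC2 pair was the exception among the sarcomere pairs of *P. zorritensis*, with 44.2 in zooids, 1.54 in pre-buds, 0.466 in stolons, 0.415 in dormant and 4.15 in germinating tissue. It was lowest in dormant tissue, at 0.939% of the zooid mean. In *C. lepadiformis* the same pair was at 335 in zooids, 4.84 in pre-buds, 3.48 in stolons, 8.98 in dormant and 3.08 in germinating tissue, and was the 1 sarcomere pair there with a dormant mean above both pre-buds and stolons.

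TNNT2 was the lowest troponin transcript of zooids in *P. zorritensis*. It was at 6.66 in *P. zorritensis* zooids, was listed at 0 in pre-buds and stolons, and reached 1.39 in dormant and 0.791 in germinating tissue. In *C. lepadiformis* it was at 149 in zooids, 3.22 in pre-buds, 2.6 in stolons, 1.93 in dormant and 3.71 in germinating tissue.

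TITIN, the giant elastic protein that spans the sarcomere, was at 105 in *P. zorritensis* zooids, 0.009 in pre-buds, 0.01 in stolons, 1.61 in dormant and 6.18 in germinating tissue. In *C. lepadiformis* it was at 36.2 in zooids, 0.514 in pre-buds, 0.388 in stolons, 0.217 in dormant and 0.114 in germinating tissue. Titin thus had its lowest mean in germinating tissue of *C. lepadiformis*, the stage in which *P. zorritensis* had its second highest. MYOM3, a myomesin that links thick filaments at the middle of the sarcomere, was at 31.6 in *P. zorritensis* zooids, 0.005 in pre-buds, listed at 0 in stolons, and at 1.81 in dormant and 2.8 in germinating tissue. Its partner in *C. lepadiformis*, matched to a larvacean protein, was at 4.94 in zooids and at no more than 0.091 elsewhere.

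**Figure D2:**
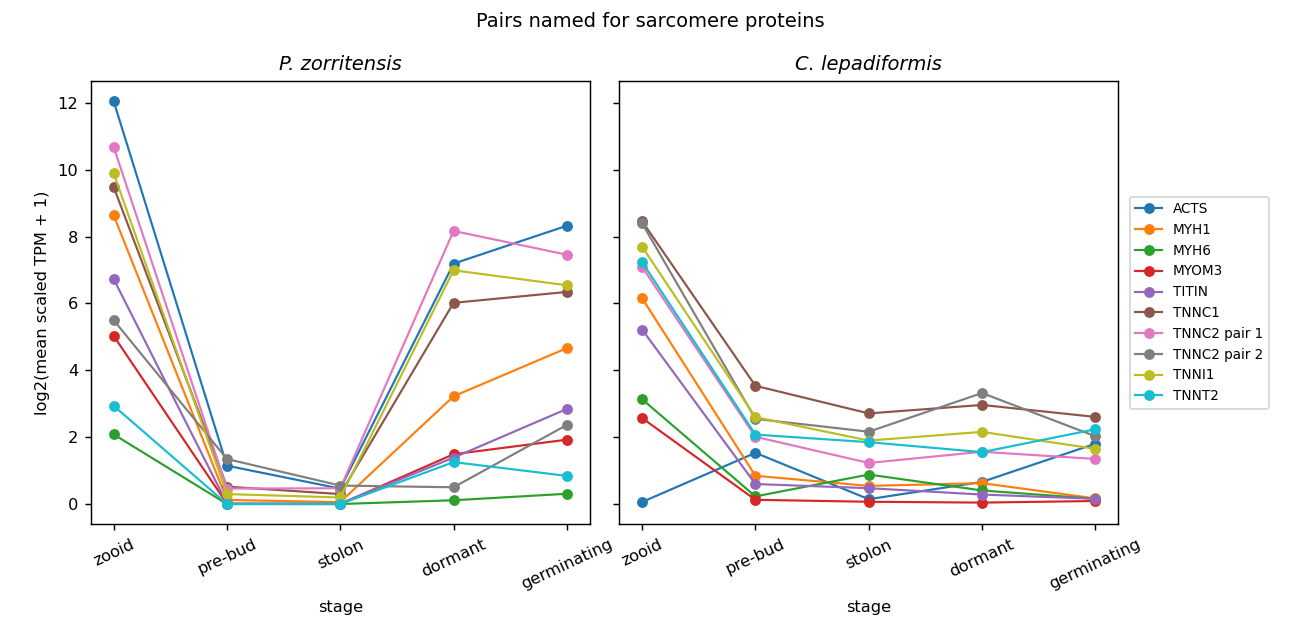
Stage means of the 10 sarcomere pairs as log2(mean scaled TPM + 1), one line per pair, in *P. zorritensis* (left) and *C. lepadiformis* (right). In *P. zorritensis* 9 of the 10 lines turn up again from stolons to dormant tissue, whereas in *C. lepadiformis* most lines remain low outside zooids and ACTS is lowest in zooids.

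Among the light chains, which stiffen and regulate the neck of the myosin head, MYL5 behaved like the sarcomere pairs. It was at 2438 scaled TPM in *P. zorritensis* zooids, 3.22 in pre-buds, 2.62 in stolons, 177 in dormant and 203 in germinating tissue. In *C. lepadiformis* MYL5 was at 362, 7.66, 5.05, 5.07 and 2.32. MYL6, named for a light chain that serves both smooth muscle and non-muscle myosin, was at 1170, 22, 20.3, 74.5 and 94.3 in *P. zorritensis*. Its *C. lepadiformis* partner was at 426 in zooids, 595 in pre-buds, 571 in stolons, 463 in dormant and 483 in germinating tissue, and was lowest in zooids. The zooid pattern of MYL6 was therefore seen in the paired transcript of *P. zorritensis* and not in that of *C. lepadiformis*.

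For MYL6 the other transcript of the same assembled gene showed the reverse. In *P. zorritensis* that transcript was at 972 in zooids, 998 in pre-buds, 553 in stolons, 1137 in dormant and 1163 in germinating tissue. In *C. lepadiformis* it was at 78 in zooids and between 3.3 and 6.22 elsewhere. Each species thus had 1 MYL6 transcript concentrated in zooids and 1 present in every stage, and the pairing by reciprocal best match joined the zooid form of the first species to the general form of the second.

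Myosin light chain kinase, which phosphorylates the regulatory light chain of smooth and non-muscle myosin, was present as a pair of that kind and as a zooid pair. The first MYLK pair was lowest in zooids in both species, at 3.59 in zooids, 6.8 in pre-buds, 5.68 in stolons, 4.57 in dormant and 6.04 in germinating tissue of *P. zorritensis*, and at 11.6, 24.1, 22.9, 12.1 and 14.3 in *C. lepadiformis*. The second was highest in zooids in both, at 14.6, 0.63, 0.334, 4.17 and 2.96 in *P. zorritensis*, and at 7.81, 0.932, 0.536, 0.734 and 0.693 in *C. lepadiformis*, where its name is MYLK2. The dormant mean of the second pair was 28.6% of the zooid mean in *P. zorritensis* and 9.4% in *C. lepadiformis*.

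Among the crosslinkers and actin binders, CNN1, named for the calponin of smooth muscle, had the zooid pattern. In *P. zorritensis* CNN1 was at 2474 scaled TPM in zooids, 0.434 in pre-buds, 0.177 in stolons, 258 in dormant and 198 in germinating tissue. In *C. lepadiformis* it was at 102, 2.8, 1.91, 2.01 and 4.91. CNN2, another calponin, was at 13.8 in zooids, 6.77 in pre-buds, 9.42 in stolons, 6.33 in dormant and 9.07 in germinating tissue of *P. zorritensis*, and its partner, named CNN3, at 20.6, 15.8, 12.3, 9.94 and 12.2. Both calponin pairs were highest in zooids of both species, but the dormant mean of CNN2 was 45.9% of the zooid mean in the first species and 48.2% in the second.

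Dormant tissue was lower than zooids past 2-fold in 25 of the 43 members in *P. zorritensis*, where 25.4% of the human-named pairs were, and in 19 in *C. lepadiformis*, where 23.0% were. It was lower in both species in 14 pairs, namely CNN1, MYH1, MYL5, the second MYLK, the second MYO7A, MYOC, TBA1C, TITIN, TNNC1, both TNNC2 pairs, TNNI1, TNNT2 and TPPP2. The share of the human-named pairs that was lower in both species was not counted. With all transcripts of an assembled gene summed, 17 members were lower in *C. lepadiformis*. TNNI1 and the second MYO7A, both among the 14 shared pairs, were then no longer past 2-fold lower there. No member was higher in dormant tissue than in zooids in *P. zorritensis* (9.71% of the human-named pairs), and only MYO10 was in *C. lepadiformis* (6.80%). Zooids were the highest stage for 26 members in *P. zorritensis*, beside 35.7% of the human-named pairs, and for 24 in *C. lepadiformis*, beside 45.5%. They were so for 20 members in both, for which the matching share of the human-named pairs was not counted. The zooid score, which is log2(mean + 1) in zooids minus its average over the other 4 stages, had a median of 0.91 over the members of *P. zorritensis* and 0.15 over the human-named pairs. In *C. lepadiformis* these medians were 0.68 and 0.30. Over the 10 sarcomere pairs alone the medians were 5.93 and 5.40.

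Against the other tissues without a grown body, the species differed in their counts. Dormant spherules exceeded pre-buds past 2-fold in 9 members of *P. zorritensis* (4.88% of the human-named pairs), which were ACTS, CNN1, MLF1, MYH1, MYL5, MYL6, TNNC1, the first TNNC2 pair and TNNI1. They exceeded stolons in 10 members (10.7%), the same 9 and TBA1C. Dormant winter buds of *C. lepadiformis* exceeded pre-buds in 0 members (3.05%) and stolons in 2, the second TNNC2 pair and TPPP2 (0.901%). When every stage was rescaled to the same sum, which lowers dormant *P. zorritensis* by 0.76 on the log2 scale relative to pre-buds and 0.96 relative to stolons, 7 of the 9 and 8 of the 10 remained. MLF1 and MYL6 left the first count and MYL6 and TBA1C the second. Under the same rescaling the members lower in dormant tissue went from 8 to 14 against pre-buds and from 3 to 13 against stolons, so that more members were lower than higher in both comparisons.

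**Figure D3:**
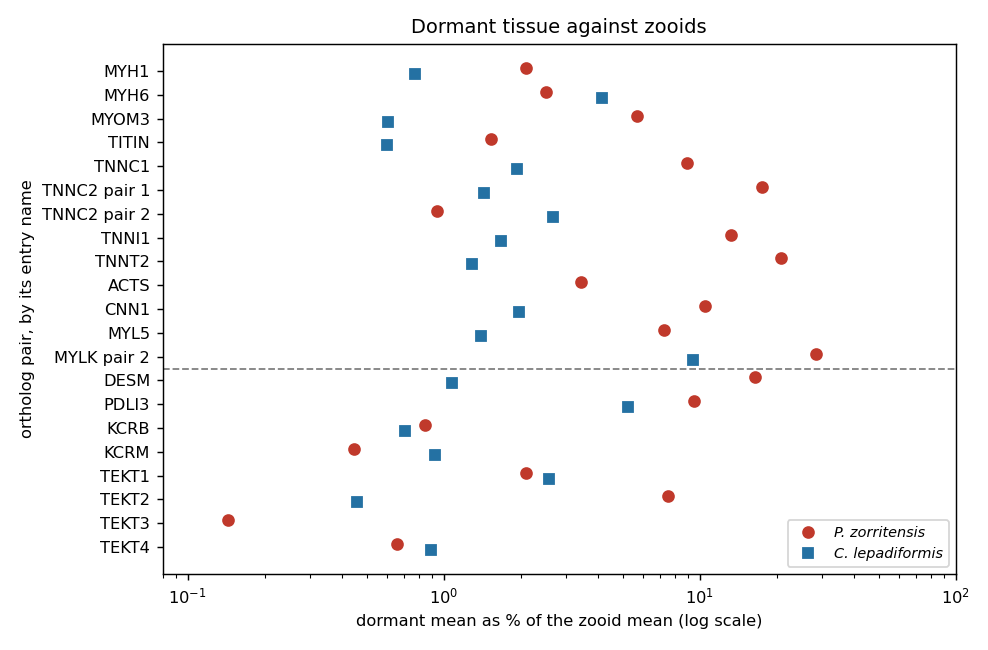
Dormant mean as a percentage of the zooid mean on a log axis, for the sarcomere pairs, CNN1, MYL5 and the second MYLK pair (above the dashed line) and for 8 other zooid genes (below it), with circles for *P. zorritensis* and squares for *C. lepadiformis*. ACTS is drawn for *P. zorritensis* only and TEKT3 of *C. lepadiformis*, listed at 0 in dormant tissue, is left out. TNNT2 at 20.8% and the first TNNC2 pair at 17.5% lie far to the right in *P. zorritensis*, with their *C. lepadiformis* partners at 1.29% and 1.44%. The TNNT2 share in *P. zorritensis* rests on low means, 6.66 in zooids and 1.39 in dormant tissue.

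The share of the zooid level found in dormant spherules differed among muscle genes. As a share of the zooid mean, the dormant mean in *P. zorritensis* was 20.8% for TNNT2, 17.5% for the first TNNC2 pair, 13.3% for TNNI1 and 8.92% for TNNC1. It was 10.4% for CNN1, 7.25% for MYL5 and 3.43% for ACTS. It was 2.1% for MYH1, 1.54% for TITIN, 2.5% for MYH6 and 5.71% for MYOM3. The troponins were thus above the proteins of the thick filament and titin, except the second TNNC2 pair at 0.939%. The shares of TNNT2 and MYH6 rest on low means, 6.66 and 3.23 in zooids and 1.39 and 0.081 in dormant tissue. In germinating tissue the shares of the 10 sarcomere pairs lay closer together, from 5.88% for TITIN and 6.13% for MYH1 to 9.4% for the second TNNC2 pair, 11.2% for TNNC1 and 11.9% for TNNT2.

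Genes of muscle that were not members also differed in this share. Of 41 names of sarcomere and membrane anchors, 7 were found among the pairs. DESM, named for the intermediate filament desmin of vertebrate muscle, was at 51.8 in *P. zorritensis* zooids, 0.072 in pre-buds, 0.042 in stolons, 8.48 in dormant and 16.2 in germinating tissue, while in *C. lepadiformis* it was at 50.8, 0.885, 0.472, 0.549 and 0.254. PDLI3, a PDZ and LIM protein of the Z line, was at 52.8, 0.838, 0.366, 5.04 and 5.38 in *P. zorritensis* and at 8.56, 0.621, 0.365, 0.45 and 0.108 in *C. lepadiformis*. These followed the troponins. The creatine kinases, which buffer ATP in muscle and in other tissues that spend energy in bursts, did not. KCRM was at 34.1 in *P. zorritensis* zooids and 0.152 in dormant tissue, KCRB at 166 and 1.4, and KCRU at 65.3 and 0, all at or under 0.842% of the zooid mean. In *C. lepadiformis* the same 3 genes were at or under 0.922%. Of this list, 5 of 7 pairs were lower in dormant tissue than in zooids past 2-fold in each species and 1 was higher, PDLI7 in *P. zorritensis* and VINC in *C. lepadiformis*. Of the human-named pairs 25.4% and 23.0% were lower and 9.71% and 6.80% higher.

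Of 24 names for excitation and calcium handling, 3 were found among the pairs. AT2A2, the calcium pump of the sarcoplasmic reticulum, was at 59.2 in *P. zorritensis* zooids and 14 in its spherules, with 44.8 and 32.4 in the zooids and winter buds of *C. lepadiformis*. It was the 1 pair of this list that was lower in dormant tissue past 2-fold, and it was so in *P. zorritensis*.

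Other cell types that zooids contain were measured beside the muscle genes. Of 48 names of ciliated-cell markers, 33 were found, and all 33 were highest in zooids in both species. Their summed level in *P. zorritensis* was 609 scaled TPM in zooids, 12.6 in pre-buds, 13 in stolons, 34.2 in dormant and 35 in germinating tissue, and in *C. lepadiformis* 766, 16.2, 13.1, 13.3 and 17.9. In dormant *P. zorritensis* the median ciliated-cell marker was at 3.8% of its zooid level, with 25 of the 33 below 1 scaled TPM, and the median sarcomere pair was at 4.57%. Of the tektins, which line the microtubules of motile cilia, TEKT1 was at 27.8 in zooids and 0.584 in dormant tissue of *P. zorritensis*, TEKT2 at 57.8 and 4.36, TEKT3 at 57.1 and 0.082, and TEKT4 at 46.4 and 0.306. The share of the zooid level was thus 7.54% for TEKT2, above that of the median sarcomere pair, and 2.1% or less for the other tektins. The tektins do not stand for the whole list. Over all 33 markers this share ran from 0.144% for TEKT3 to 30.9% for CFA65, which was at 10.4 in zooids and 3.21 in dormant tissue.

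Digestive-cell markers, of which 17 pairs with 11 of 30 names were found, ran at a median of 18.3% of their zooid level in dormant *P. zorritensis* and 2.59% in dormant *C. lepadiformis*. Their sums in *P. zorritensis* were 948 in zooids, 6541 in pre-buds, 1197 in stolons, 9064 in dormant and 3799 in germinating tissue. Outside zooids these sums rest on the amylase AMYP, at 8982 in dormant tissue and 21.1 in zooids. The other markers varied in both directions. The chymotrypsin CTRL was at 0.638 and the fatty acid carrier FABP4 at 1.43 in dormant tissue against 170 and 443 in zooids, whereas one PA21B pair, a phospholipase, was at 34.2 against 17 and one pair of the lipase relative LIPR1 at 14.6 against 10.7. In *C. lepadiformis* the sums were 4022, 214, 202, 426 and 276. Hemocyte markers, 9 pairs with 6 of 12 names, summed to 182, 1463, 628, 1176 and 759 in *P. zorritensis* and to 305, 792, 791, 1453 and 1743 in *C. lepadiformis*. CD109 made up most of the sum in pre-buds (1094) and spherules (766) of *P. zorritensis* and in winter buds of *C. lepadiformis* (905). It was the smaller part in stolons of the first species (146) and in germinating tissue of the second (552). Dormant tissue exceeded zooids past 2-fold in 5 of the 9 hemocyte pairs for the first species and 6 for the second, and was lower in 1 each. Among the human-named pairs 9.71% and 6.80% were higher, and 25.4% and 23.0% lower. The part of any of these cell types in the levels of the muscle genes was not tested.

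Outside muscle, most Arp2/3 subunits and most non-muscle myosins had their lowest mean in dormant spherules of *P. zorritensis* and in germinating winter buds of *C. lepadiformis*. The Arp2/3 complex, which starts new actin filaments as branches on old ones, showed this in 4 of its 5 subunits in each species. In *P. zorritensis*, 4 of 5 were lowest in dormant tissue, as were 33.7% of the human-named pairs. In *C. lepadiformis*, 4 of 5 were lowest in germinating tissue, as were 34.3%. These are also the stages with the largest summed values, and rescaling to equal sums placed them lower still, with ARPC3 then also past 2-fold below pre-buds in *P. zorritensis*. ARP3, an actin-related core subunit, was at 38.3 in zooids, 34.5 in pre-buds, 22.3 in stolons, 12.1 in dormant and 34.2 in germinating tissue of *P. zorritensis*. Dormancy thus had the lowest ARP3 level of the 5 stages in that species.

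ARP2, the other actin-related core subunit, was at 28.1, 31.9, 16.5, 11 and 24.9 in zooids, pre-buds, stolons, dormant and germinating tissue of *P. zorritensis*, and at 83.8, 98.6, 87.6, 79 and 46.4 in *C. lepadiformis*. ARPC2, a scaffold subunit, was at 99.6, 99.1, 60.5, 38.5 and 104 in *P. zorritensis* and at 75, 90, 86.4, 83.6 and 39.5 in *C. lepadiformis*. The germinating mean of ARPC2 was 1.40 above the dormant mean on the log2 scale in *P. zorritensis*, and it was lower by a difference of -1.06 in *C. lepadiformis*. ARPC3 was at 111, 115, 74.1, 70.9 and 132 in *P. zorritensis* and at 113, 157, 125, 126 and 98.3 in *C. lepadiformis*. ARP10, which belongs to dynactin and not to the Arp2/3 complex, stayed between 3.92 and 6.76 in *P. zorritensis* and between 5.58 and 9.64 in *C. lepadiformis*.

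Among crosslinkers, ACTN2, named for an alpha-actinin that bundles actin, was at 49.5 in zooids, 49.9 in pre-buds, 26.3 in stolons, 11.1 in dormant and 30.5 in germinating tissue of *P. zorritensis*. Its partner, named ACTN1, was at 55.7, 45.7, 70, 75.5 and 25.9 in *C. lepadiformis*, with its highest mean in dormant tissue. FLNC, a filamin that crosslinks actin into networks, was at 24.8, 41.9, 27.9, 13.3 and 30.2 in *P. zorritensis* and at 27.4, 36.7, 62.9, 33.4 and 9.49 in *C. lepadiformis*. Although ACTN2 and FLNC carry the names of muscle forms, neither was confined to zooids in either species. TAGL3, a transgelin (a small actin-binding relative of calponin), was at 46.2, 16.8, 14.8, 16.6 and 37.7 in *P. zorritensis* and at 303, 974, 746, 297 and 275 in *C. lepadiformis*. TAGL3 was the 1 member lower in dormant tissue than in both pre-buds and stolons past 2-fold in *C. lepadiformis*.

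**Figure D4:**
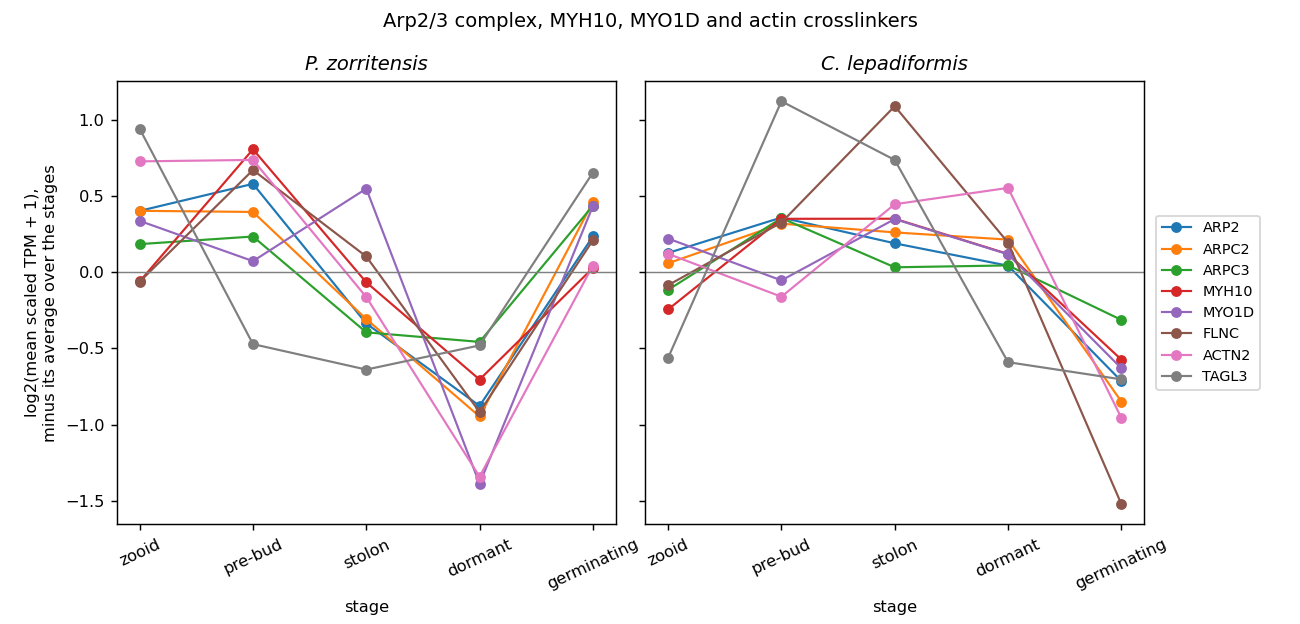
Stage means of ARP2, ARPC2, ARPC3, MYH10, MYO1D and 3 crosslinkers, as log2(mean scaled TPM + 1) minus the average of the 5 stages, one line per pair, in *P. zorritensis* (left) and *C. lepadiformis* (right). ARP2, ARPC2, ARPC3, MYH10, MYO1D, FLNC and ACTN2 are at their lowest in dormant tissue on the left, and all lines drawn are at their lowest in germinating tissue on the right.

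The myosins of cells other than muscle followed a like course. Of the 8 pairs, *P. zorritensis* had 5 with their minimum in dormant tissue and *C. lepadiformis* had 6 with it in germinating tissue, beside 33.7% and 34.3% of the human-named pairs. Past 2-fold, only MYH10 and MYO1D of these 8 were below pre-buds in dormant *P. zorritensis*, and 0 were lower on germination in *C. lepadiformis*. The minimum in germinating *C. lepadiformis* does not hold for every transcript of these genes. The other MYO1F transcript was lowest in zooids (34.4, with 40 in germinating tissue) and that of MY18A in stolons (11.2, with 19.4). That of the first MYO7A was lowest in pre-buds, and that of the second was lowest in germinating tissue. MYH10, the heavy chain of a non-muscle myosin II that drives cell contraction and division, was at 77.4 in zooids, 142 in pre-buds, 77.1 in stolons, 49.2 in dormant and 82.3 in germinating tissue of *P. zorritensis*. In *C. lepadiformis* MYH10 was at 74.5, 113, 113, 96.1 and 59.1. MYH10 was thus present in every stage of both species, unlike MYH1.

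The class I myosins link actin to membranes. MYO1D was at 10.2, 8.32, 12, 2.39 and 11 in zooids, pre-buds, stolons, dormant and germinating tissue of *P. zorritensis*, and at 17.7, 14.5, 19.4, 16.4 and 9.37 in *C. lepadiformis*. Its dormant mean was 23.5% of the zooid mean in *P. zorritensis* and 92.7% in *C. lepadiformis*. MYO1F was at 19.7, 18.4, 22.6, 11.9 and 16.3 in *P. zorritensis*, and its partner, named MYO1E, at 11.3, 10.4, 13.6, 12 and 5.88. MY18A, a myosin thought to have little motor activity, was at 6.54, 4.96, 4.35, 3.01 and 4.22 in *P. zorritensis* and at 10.7, 8.03, 9.64, 8.62 and 5.81 in *C. lepadiformis*.

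MYO10, the myosin that travels to the tips of filopodia, went opposite ways. It was at 4.82, 1.54, 3.26, 0.587 and 2.24 in *P. zorritensis*, where dormant tissue had 12.2% of the zooid level, and at 7.52, 11.6, 20.3, 17.2 and 9.36 in *C. lepadiformis*, where it had 229%. Because its mean was below 5 in every stage of *P. zorritensis*, MYO10 was not counted there. MYO6, a motor that runs toward the minus end of actin in endocytosis and in microvilli, was highest in zooids of both species, at 9.76, 4.84, 4.23, 7.1 and 3.48 in *P. zorritensis* and at 25.9, 3.12, 2.3, 3.96 and 4.41 in *C. lepadiformis*.

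MYO7A, which in vertebrates serves the bundled actin of hair cells and other epithelia, was the name of 2 pairs. The first was at 6.73, 4.93, 8.8, 8.11 and 3.06 in *P. zorritensis* and at 11.1, 3.13, 7.91, 4.63 and 3.01 in *C. lepadiformis*. The second was at 7.7, 1.9, 2.02, 2.01 and 1.75 in *P. zorritensis* and at 18.8, 5.51, 9.18, 8.22 and 5.3 in *C. lepadiformis*. Both paired transcripts were lowest in germinating tissue of both species, and in *P. zorritensis* the first was highest in stolons and the second in zooids. In *C. lepadiformis* the other transcript of the first gene was lowest in pre-buds (4.78) and highest in dormant tissue (9.77). That of the second was at 36.6 in zooids, 34.4 in dormant and 8.8 in germinating tissue. The lower dormant means of the paired MYO7A transcripts in *C. lepadiformis* therefore do not hold for every transcript of those genes.

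Over the comparisons, dormant tissue was below pre-buds past 2-fold in 8 members of *P. zorritensis* (9.94% of the human-named pairs), namely ACTN2, ARP2, ARP3, ARPC2, FLNC, MLEC, MYH10 and MYO1D, and in 1 of *C. lepadiformis*, TAGL3 (3.87%). It was below stolons in 3 members of *P. zorritensis*, ACTN2, FLNC and MYO1D (11.5%), and in 1 of *C. lepadiformis*, TAGL3 (2.38%). Germinating tissue was above dormant tissue in 12 members of *P. zorritensis* (10.2%), which were ACTN2, ACTS, ARP2, ARP3, ARPC2, FLNC, MLEC, MYH1, MYO1D, TAGL3, TITIN and TPPP2, and below it in 1, the first MYO7A pair (3.43%). In *C. lepadiformis* it was above in 2, TBA1C and TPPP2 (3.57%), and below in 5, ACTN2, ARPC2, FLNC, MLEC and the second TNNC2 pair (4.53%). The pairs ACTN2, ARPC2, FLNC and MLEC were past 2-fold in opposite directions in the 2 species, and TPPP2 was the 1 pair higher on germination in both. The shares of the human-named pairs that did either were not counted.

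**Figure D5:**
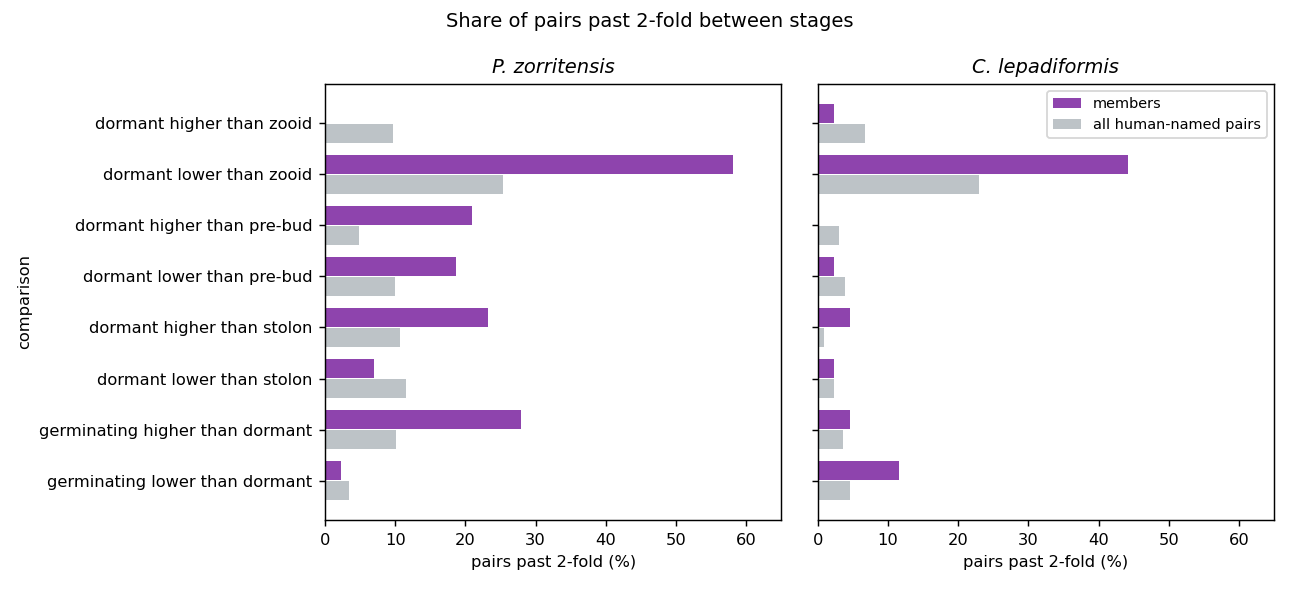
Percentage of the 43 members (purple) and of the 3441 human-named pairs (grey) past 2-fold in each comparison of stages, for *P. zorritensis* (left) and *C. lepadiformis* (right), with all axes starting at 0. The members stand at 58.1% against 25.4% for dormant lower than zooid in *P. zorritensis* and at 44.2% against 23.0% in *C. lepadiformis*.

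Regulators of actin that were not members, 25 pairs with 24 of 58 names, went the same way in *P. zorritensis*. Dormant tissue was below zooids past 2-fold in 11 of the 25 there and in 1 in *C. lepadiformis*, and below pre-buds in 7 and 0. Among the human-named pairs these shares were 25.4% and 23.0% below zooids and 9.94% and 3.87% below pre-buds. COR1C, a coronin that works with Arp2/3, was at 113 in zooids, 138 in pre-buds, 85.5 in stolons, 29.7 in dormant and 117 in germinating tissue of *P. zorritensis* and at 105, 157, 164, 139 and 84 in *C. lepadiformis*. The GTPase RHOA was at 134, 113, 75.8, 43.6 and 129 in *P. zorritensis* and at 469, 410, 376, 325 and 273 in *C. lepadiformis*. CAZA1, a subunit that caps filament ends, went the other way in *P. zorritensis*, at 103 in zooids and 314 in dormant tissue. In germination 5 of the 25 were higher and 0 lower in *P. zorritensis*, and 0 were higher and 4 lower in *C. lepadiformis*, beside 10.2% higher and 3.43% lower of the human-named pairs in the first species and 3.57% and 4.53% in the second.

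The tubulin members were few and mixed. TBA1C, an alpha-tubulin, was at 320 scaled TPM in zooids, 52.1 in pre-buds, 28.3 in stolons, 103 in dormant and 193 in germinating tissue of *P. zorritensis*. Its partner, named TBA1A, was at 378, 19.7, 19.1, 18.8 and 40.9 in *C. lepadiformis*. The dormant mean was 32.2% of the zooid mean in the first species and 4.96% in the second. TBB4B, a beta-tubulin used in cilia and elsewhere, was at 324, 303, 214, 384 and 718 in *P. zorritensis*, highest in germinating tissue. The *C. lepadiformis* transcript of the same name was at no more than 1.49 in any stage.

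TPPP2, of a family that bundles microtubules and that in mammals is found in sperm, had the largest difference between dormant tissue and zooids of all members in *P. zorritensis*, at -6.70 on the log2 scale. It was at 137 in zooids, 1.59 in pre-buds, 3.67 in stolons, 0.331 in dormant and 15.4 in germinating tissue of *P. zorritensis* and at 291, 4.2, 1.75, 7.9 and 61.1 in *C. lepadiformis*. Germinating tissue was thus above dormant tissue by 3.62 on the log2 scale in *P. zorritensis* and by 2.80 in *C. lepadiformis*. Among 63 names of tubulin-folding factors, motors and microtubule partners, 12 were found. Of these, dormant tissue was below zooids past 2-fold in 2 pairs in each species and above them in 1 in *C. lepadiformis*. With 25.4% and 23.0% of the human-named pairs below zooids and 6.80% above them in *C. lepadiformis*, these counts do not set the list apart. The mitotic kinesin KIF11 was at 6.2, 3.37, 1.75, 0.262 and 6.67 in *P. zorritensis* and at 9.24, 8.41, 6.99, 4.72 and 3.53 in *C. lepadiformis*.

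The 7 pairs caught by spelling are a carbohydrate-binding protein of the endoplasmic reticulum (MLEC), a leukemia-associated factor (MLF1), a ubiquitin ligase (MYLIP), myocilin (MYOC), the membrane protein myoferlin (MYOF), a glycosidase (MYORG) and a Rab GTPase-activating protein (TBD2B). MLEC was at 13.7, 17, 8.56, 4.75 and 14.2 in zooids, pre-buds, stolons, dormant and germinating tissue of *P. zorritensis* and at 29, 34.8, 29.6, 27.2 and 10.2 in *C. lepadiformis*. MLF1 was at 40.3, 16.2, 9.23, 51.4 and 40.1 in *P. zorritensis* and at 46.3, 18.5, 14.2, 14.4 and 13.4 in *C. lepadiformis*. MYLIP was at 19.8, 17.3, 26.6, 30.8 and 20.4 in *P. zorritensis* and at 18.9, 12, 35.6, 23.4 and 20 in *C. lepadiformis*. MLF1, MYLIP and TBD2B were the members with their highest mean in dormant tissue of *P. zorritensis*, so that none of the pairs from contractile or cytoskeletal families had it there. Dormant tissue was the highest stage for 17.5% of the human-named pairs of that species.

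TBD2B was at 16.5, 16.9, 20.8, 30.3 and 15.4 in *P. zorritensis* and at 12, 18.3, 15.5, 15.7 and 17.1 in *C. lepadiformis*. MYOC was at 6.14, 0.497, 1.05, 0.918 and 4.45 in *P. zorritensis* and at 7.5, 2.08, 3.66, 0.923 and 1.42 in *C. lepadiformis*. MYORG was at 4.43 in *P. zorritensis* zooids and 8.59 in those of *C. lepadiformis*, with no more than 1.18 and 0.006 elsewhere. These last were highest in zooids, MYOC and MYORG in both species. MYOF lay between 2.49 and 7 in *P. zorritensis* and between 3.71 and 8.74 in *C. lepadiformis*.

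Between the species, members that were marked by zooids in one tended to be so in the other. Across the 43 pairs the zooid scores had a Spearman correlation of 0.64, and 0.54 across the 3441 human-named pairs. Without the 10 sarcomere pairs it was 0.57 over 33 members. The dormancy score, which is log2(mean + 1) in dormant tissue minus its average over the other 4 stages, had a correlation of -0.49 across the members and 0.12 across the human-named pairs, and -0.51 without the sarcomere pairs. The difference between germinating and dormant tissue had -0.23 across the members and -0.093 across the human-named pairs. These are descriptions across genes with no test, and the pairs are not independent, since stage means come from the same pools of tissue and some pairs share a name.

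Some members have further transcripts of the same assembled gene, 18 transcripts for 15 members in *P. zorritensis* and 29 for 20 members in *C. lepadiformis*, and reads of near-identical transcripts can be divided among them. For TNNI1 in *C. lepadiformis* these differed from the paired transcript, the most abundant of them standing at 109 in zooids, 104 in pre-buds, 139 in stolons, 178 in dormant and 233 in germinating tissue. The low level of the paired TNNI1 transcript in dormant *C. lepadiformis* therefore does not hold for every transcript of that gene. For the first TNNC2 pair in *P. zorritensis* the other transcript was between 6.07 and 27.5 over the stages, and for MYOM3 in *C. lepadiformis* it was between 1.85 and 11.8, highest in germinating tissue. For CNN1 in *C. lepadiformis* the other transcript was at 18.5 in zooids, 7.04 in pre-buds, 7.37 in stolons, 11.9 in dormant and 24.8 in germinating tissue, so that the low dormant share of the paired CNN1 transcript does not hold for it either.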

How the data were processed

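The authors deposited signal values per transcript and stage, made from paired reads that they trimmed, cleared of ribosomal RNA, assembled de novo for each species and quantified with Kallisto as TPM. They multiplied TPM by TMM factors within each species and averaged the samples of a stage, with both germination temperatures together. The sources used here give no depth for single samples, and the precision of a mean is therefore unknown. The table of pairs holds reciprocal best hits with their entry names and the study's own lists of stages called up or down. The 4 columns of calls were not read. Columns of other samples numbered 0.

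Members were chosen by entry name, and the members, roles and lists were chosen with earlier results of these data known. Levels were compared as log2(mean + 1), with a minimum of 5 in the higher stage and a 2-fold threshold. Values in every stage were given for whole roles of up to 4 pairs and for troponin, titin and myosin-binding pairs, and in larger roles for the 4 highest and the 3 with the largest zooid score, plus the extremes of the other scores. Other genes named stand as examples chosen after their values were seen. Values of 1 member, of 1 transcript of another and of 1 other listed gene are not reported here, and all stay in the counts. Counting was tested on simulated data. Python 3.11.15, numpy 2.4.6, pandas 2.3.3, scipy 1.17.1 and matplotlib 3.10.9 were used. Alternatives were other thresholds, minimums, pseudocounts, scalings, references and choices of pairs.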

Additional observations from a re-analysis of the deposited data

How the results depend on the processing

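Of the recalculated values, 190 stayed within tolerance (1.5 times for a count, 0.1 for a correlation), 44 moved and 1 changed sign. Rescaling each stage to the same sum moved, in *P. zorritensis*, dormant below pre-bud to 14 members, below stolon to 13, germinating below dormant to 0 and the median zooid score to 1.497. In *C. lepadiformis* it moved dormant below stolon to 2, germinating above dormant to 1 and below dormant to 17. It reversed no member that was past 2-fold. A rescaling to a median log2 ratio of 0 moved no count beyond tolerance.

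At 1.5-fold, *P. zorritensis* had 2 members higher in dormant tissue than in zooids, 8 lower than in stolons and 4 lower on germination, and *C. lepadiformis* had 4 higher and 3 lower in dormant tissue than in pre-buds, 5 lower than in stolons and 13 lower on germination. At 4-fold, *P. zorritensis* had 13 lower in dormant tissue than in zooids, 1 lower than in pre-buds, 0 lower than in stolons, and 1 higher and 0 lower on germination. *C. lepadiformis* had 1 higher on germination at 4-fold and 0 in the other comparisons that moved (dormant above zooid, below pre-bud, above and below stolon, germinating below dormant). With a pseudocount of 5, *P. zorritensis* had 1 lower in dormant tissue than in stolons and 7 higher and 0 lower on germination. *C. lepadiformis* had 0 above zooids, 0 above stolons, 1 higher and 3 lower on germination and a median zooid score of 0.35. With a pseudocount of 0.1, 2 were lower on germination in *P. zorritensis*. A minimum of 1, or none, gave 5 members of *P. zorritensis* and 2 of *C. lepadiformis* lower in dormant tissue than in stolons.

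With all transcripts of an assembled gene summed, an alternative chosen after seeing the data, *C. lepadiformis* had 2 lower in dormant tissue than in pre-buds, 2 lower than in stolons and 5 higher on germination. The median zooid score was 1.59 in *P. zorritensis* against dormant tissue alone and 0.45 in *C. lepadiformis* with 1 pair per name. The correlation of zooid scores was 0.78 over pairs reaching 5 in both species, and that of germinating minus dormant was 0.071 by Pearson's method. The causes were not tested. No paired analysis was possible because each stage has 1 mean, and leaving out samples could not be run for the same reason.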
